A study of Mus musculus with 17 samples.

Results

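The 10 genes described here are read as feedback and output genes of the ERK pathway: the phosphatase genes Dusp4, Dusp5 and Dusp6, the Sprouty and SPRED genes Spry1, Spry2, Spry4 and Spred1, the PEA3 factor genes Etv4 and Etv5, and Phlda1. They were chosen by name, and each symbol matched 1 of the 35896 gene IDs measured. Earlier results of these data were known when the members and the further gene lists were chosen. Their called shares and medians, set beside those of all genes, are therefore descriptive. All 10 passed the filter on low counts, which left 13923 genes. RNA was sequenced from mouse pancreatic stellate cells, which lie around the acini and can become activated fibroblasts. All libraries came from wild-type C57BL/6J cells of the lines PSC4 and PSC5, grown in Matrigel (a basement membrane gel) under treatment for 4 days. The 17 libraries form 4 groups: control medium (5 libraries), control medium with 20 ng/mL TGFbeta (4), medium conditioned by tumor organoids (4, called CM below) and CM with 300 nM neratinib (4). Neratinib is an irreversible inhibitor of the ERBB receptor kinases, among them EGFR and ERBB2. No group had neratinib without CM. Replicate numbers go with passages: PSC4 replicates 1, 2 and 3 were at passages 23, 24 and 25, and PSC5 replicates 1 and 2 at passages 27 and 28. The labels do not say whether replicates were grown as separate cultures beyond that, so p-values measure the spread between these libraries.

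ERK is the last kinase of the RAS, RAF and MEK cascade, which growth factor receptors such as the ERBB family switch on. Active ERK phosphorylates transcription factors and inactivates the repressor CIC, and the genes that this turns on include brakes on the pathway itself. DUSP phosphatases of this family remove phosphate from ERK: DUSP6 does so in the cytoplasm, DUSP5 and DUSP4 in the nucleus, and DUSP4 also acts on other MAP kinases. Sprouty and SPRED proteins hold the cascade back between the receptor and RAF, and SPRED1 does so with the RAS inactivator NF1. ETV4 and ETV5 are ETS transcription factors under CIC repression, and PHLDA1 is a pleckstrin homology domain protein whose gene is induced by many growth factors.

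Promoter sequences from RefSeq (build GRCm38.p6) were searched for 6 of the 10 genes: Dusp5, Dusp6, Spry1, Spry2, Spred1 and Etv5, the last with 2 entries. Dusp4, Etv4 and Phlda1 had no entry, and the Spry4 promoter is not reported here. The stretches below run from 100 bases before to 30 bases after the start of the RefSeq transcript. They are shown because Dusp6 and Spry1 were the members that passed the test for a fall with neratinib in the main fit. Spry2 and Dusp5 come from the same families, and Dusp5 passed for a fall in 4 of 21 alternative fits. Each is written 5′ to 3′ on the strand of the gene. Capitals mark matches to the octamers that CIC is known to bind (TGAATGAA, TGAATGGA, TCAATGAA and TCAATGGA, on both strands) and to the CArG box, the site of the serum response factor. The stretches lie at chr10:99263131-99263260 (plus strand, Dusp6), chr14:105896790-105896919 (minus strand, Spry2), chr19:53529045-53529174 (plus strand, Dusp5) and chr3:37639847-37639976 (plus strand, Spry1).
Dusp6: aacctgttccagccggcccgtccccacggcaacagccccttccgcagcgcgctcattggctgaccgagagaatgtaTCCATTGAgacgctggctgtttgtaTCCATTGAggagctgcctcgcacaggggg
Spry2: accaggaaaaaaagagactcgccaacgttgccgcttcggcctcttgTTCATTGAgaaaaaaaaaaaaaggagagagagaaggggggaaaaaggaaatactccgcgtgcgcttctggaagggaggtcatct
Dusp5: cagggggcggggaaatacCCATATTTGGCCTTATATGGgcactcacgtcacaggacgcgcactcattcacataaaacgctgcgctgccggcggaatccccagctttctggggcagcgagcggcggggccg
Spry1: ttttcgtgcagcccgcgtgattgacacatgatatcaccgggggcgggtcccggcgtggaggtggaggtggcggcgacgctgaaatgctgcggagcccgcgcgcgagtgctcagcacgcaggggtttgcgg

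Dusp6 held 2 copies of TCAATGGA on the minus strand, 1 before and 1 just after the transcription start. Of 32851 mouse promoters of 300 bases (250 before to 50 after the start), 0.183% held 2 or more matches to any of the 4 octamers, and 3.84% held at least 1. Spry2 held 1 copy of TCAATGAA on the minus strand, an octamer found in 0.749% of promoters. The Dusp5 stretch held 2 CArG boxes that adjoin each other. Of all promoters 0.0183%, 6 in number, held 2 or more CArG boxes anywhere in their 300 bases. Neither the 4 octamers nor a CArG box was found in the Spry1, Spred1 and Etv5 windows. Other forms of the CIC site were not searched. The octamers TCAATGAA and TCAATGGA and the strict form of the CArG box, with only A or T in its middle, were added after the sequences had been seen. A match is a string of letters, and binding was not measured. The ETS core GGAAG, found in 71.4% of all promoters, occurred in Dusp5, Dusp6, Spry2, Spred1 and the first Etv5 window but not in Spry1.

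Library totals lay between 22168953 and 29421447 counts, and the members had between 109 and 6330 counts in a library. All 10 fibroblast markers, among them Col1a1 and Pdgfrb, had counts in every group. The summed CPM (counts scaled to equal library totals with TMM factors) of 10 epithelial markers was 74.4 to 89.5 in control libraries, with Tspan8 at 0, and 83.3 to 141.5 in TGFbeta libraries. In the conditioned media it went with the medium code of the labels, T6 for replicates 2 and T8 for replicates 1, whose meaning the labels do not give. CM libraries had 196.5 and 215.5 with T6 and 66.5 and 77.9 with T8, and CM with neratinib libraries had 178.3 and 344.8 with T6 and 38.9 and 88.8 with T8. Of these 10 markers, edgeR called 6 higher and 1 lower in CM than in control, 8 higher and 1 lower in CM with neratinib than in control, and 0 between CM and CM with neratinib. Of all genes tested, 7.05% and 7.14% were called higher and lower in CM than in control, and 22.2% and 20.9% in CM with neratinib. The median fitted log2 change of the 10 epithelial markers against control was 5.10 in CM and 5.33 in CM with neratinib. In control, 3 of them had 3 counts or fewer in every library. Which cells this RNA came from was not tested. Of 6 leukocyte markers 5 had 3 counts or fewer in every library. The libraries that carry the label PSC4 replicate 1, 1 in each group but TGFbeta, lay with PSC5 on the first component of variation within groups, at 18.4 to 35.3, where PSC5 had 2.2 to 37.8 and the other PSC4 libraries -49.2 to -30.1. For the members, calls that changed without the T6 libraries or without PSC4 replicate 1 are given below. Calls of the markers and of the other gene lists are from the main fit alone.

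Neratinib was set against CM alone to ask what ERBB inhibition did to the response to tumor organoid medium. In the main fit Dusp6 and Spry1 fell, and none of the other 8 members passed the test in either direction. With neratinib, Dusp6 went from 79.4 ± 10.6 to 55.9 ± 13.1 CPM and Spry1 from 24.6 ± 6.56 to 11.2 ± 5.64 CPM (mean ± SD, n = 4 each). A gene is called at a Benjamini-Hochberg adjusted p under 0.05 in edgeR's quasi-likelihood test over all 13923 genes, and in this comparison 9.63% of them were called lower and 10.8% higher, against 2 and 0 of the 10 members. The median fitted log2 change was -0.18 over the members and 0.00082 over all genes tested. The main fit leaves out the pairing of neratinib and CM libraries by line and number. With a replicate block (a term for each line and number), 4 members were called, where that fit called 32.8% of all genes. These were Dusp6 and Spry1 again, Dusp5 lower and Dusp4 higher. Without the T6 libraries edgeR called 0 members, with 2 at an unadjusted p under 0.05, and 187 genes in all (1.31%). In these bulk libraries, fewer cells with a transcript and less of it per cell cannot be told apart.

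**Figure D1:**
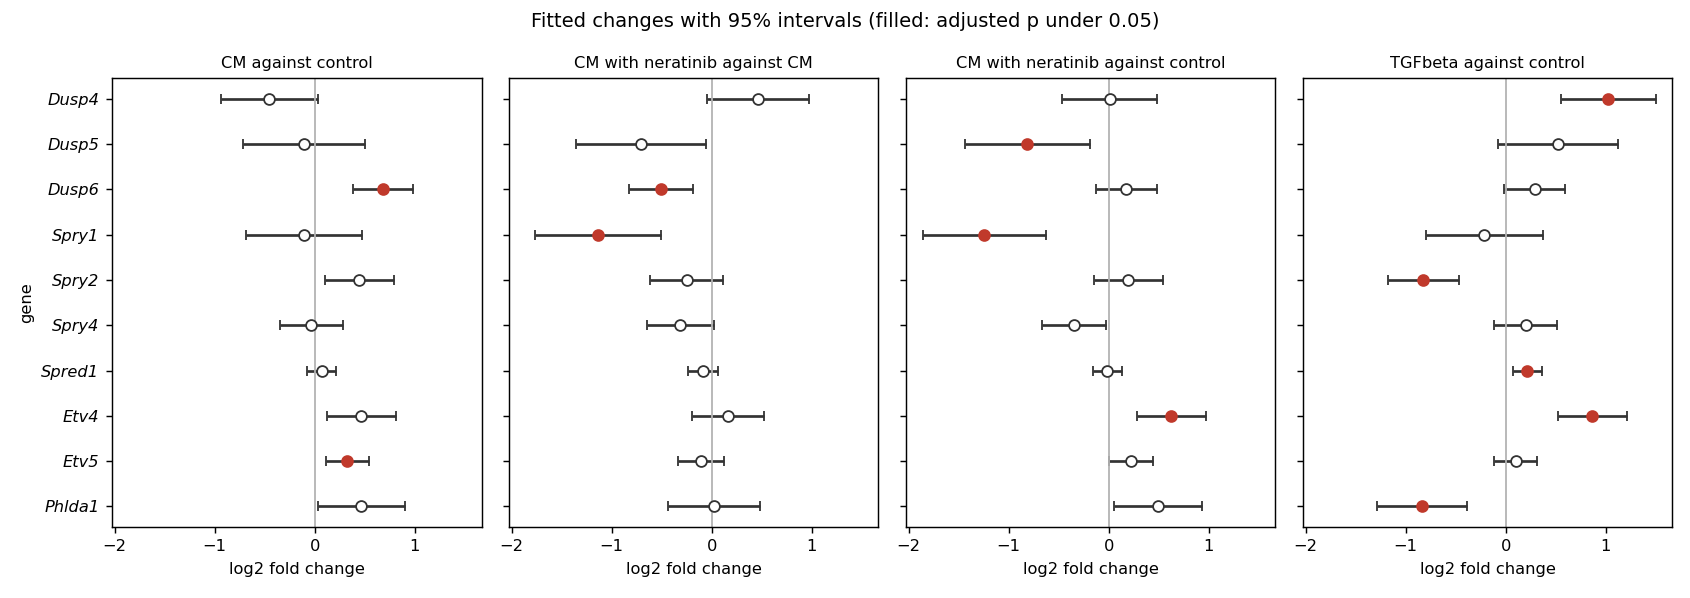
Fitted log2 fold changes (x axis) of the 10 ERK feedback genes (y axis) in 4 comparisons, with 95% intervals from edgeR's quasi-likelihood fit of 17 libraries; filled points have an adjusted p under 0.05. In CM with neratinib against CM only Dusp6 (-0.51) and Spry1 (-1.14) are filled, while TGFbeta against control has 5 filled points on both sides of 0.

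Dusp6 (ENSMUSG00000019960, GRCm38 chromosome 10, 99263231 to 99267489, plus strand) was the member called higher in CM and lower with neratinib in the main fit. In control medium the PSC4 libraries had 46.1, 50.4 and 51.2 CPM and the PSC5 libraries 46.8 and 52.2 CPM. In CM they had 73.3 and 88.1 (PSC4) and 88.6 and 67.5 CPM (PSC5), and with neratinib 45.0 and 67.9 (PSC4) and 66.4 and 44.0 CPM (PSC5). Every CM library lay above every control library, while the neratinib libraries overlapped both groups. The share of all genes whose groups do not overlap was taken only for neratinib against CM (18.7%). Separations in other comparisons, here and below, are given without that share. The rise in CM was 0.68 on the log2 scale (SE 0.14, edgeR adjusted p = 0.0064), higher in 4 of 4 libraries and called in all 22 alternative fits. The change with neratinib was -0.51 (SE 0.15, edgeR adjusted p = 0.0279), and all 4 neratinib libraries lay below the CM mean. This call was lost in 7 of 21 alternative fits, with edgeR adjusted p = 0.0802 without CM PSC4 replicate 2, 0.0766 without CM PSC5 replicate 1, 0.0832 without neratinib PSC4 replicate 1 and 0.0911 without neratinib PSC5 replicate 2. Without the T6 libraries the change was -0.55 (edgeR adjusted p = 0.105) and without PSC4 replicate 1 it was -0.45 (edgeR adjusted p = 0.0856), so its size moved little. Against control, CM with neratinib differed by 0.18 (95% interval -0.13 to 0.48, edgeR adjusted p = 0.332). These comparisons share the CM or the control libraries and are not independent of each other.

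TGFbeta gave Dusp6 levels of 47.8 and 64.9 (PSC4) and 65.3 and 63.6 CPM (PSC5), of which PSC4 replicate 2 lay within the control range and the other 3 between control and CM. The difference from control was 0.29 (edgeR adjusted p = 0.122), and it was called without TGFbeta PSC4 replicate 2 (edgeR adjusted p = 0.0474). From lowest to highest the group means of Dusp6 were 49.3 (control), 55.9 (CM with neratinib), 60.4 (TGFbeta) and 79.4 CPM (CM), and no neighbouring step in this order passed the test, the last with edgeR adjusted p = 0.0519. That last step was called with the replicate block (edgeR adjusted p = 0.0226), without PSC4 replicate 1 (0.0375), without the T6 libraries (0.0433) and without the CM library PSC5 replicate 2 (0.0336).

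Dusp5 (ENSMUSG00000034765, chromosome 19, 53529109 to 53542431, plus strand) encodes the phosphatase that holds ERK in the nucleus. Its levels in CM were 34.2 and 17.4 (PSC4) and 29.9 and 30.2 CPM (PSC5), and with neratinib 21.03 and 9.53 (PSC4) and 18.4 and 20.0 CPM (PSC5). Each neratinib library was below its CM partner of the same line, passage and medium code, although the groups overlapped because PSC4 replicate 2 was low in both. The change was -0.71 (SE 0.30, edgeR adjusted p = 0.114), and with the replicate block it was -0.71 (edgeR adjusted p = 0.00245). It was also called without PSC4 replicate 1 (-0.71, edgeR adjusted p = 0.0117). In control medium Dusp5 had 43.3, 18.9 and 14.9 (PSC4) and 33.3 and 37.7 CPM (PSC5), with the library labelled PSC4 replicate 1 the highest and the other PSC4 libraries the lowest. Against control, CM with neratinib fell by 0.81 on the log2 scale (edgeR adjusted p = 0.0358), a call lost in 9 of 22 alternative fits. Leaving out any 1 of the neratinib libraries PSC4 replicate 2, PSC5 replicate 1 and PSC5 replicate 2, or of the control libraries PSC4 replicate 1, PSC5 replicate 1 and PSC5 replicate 2, gave edgeR adjusted p between 0.0562 and 0.108, and without the T6 libraries the change was -0.58 (edgeR adjusted p = 0.231). CM alone differed from control by -0.11 (edgeR adjusted p = 0.841). Each CM library was below its control partner, by 0.12 to 0.34 in log2 CPM, and with only these groups and the replicate block the change was -0.24 (edgeR adjusted p = 0.0186). With the block over all groups it was not called, and without the T6 libraries its sign turned (0.12).

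TGFbeta had the highest mean level of Dusp5, with libraries at 31.6 and 41.6 (PSC4) and 47.1 and 54.8 CPM (PSC5). The control library labelled PSC4 replicate 1, at 43.3 CPM, lay above both PSC4 libraries of this group. The difference from control was 0.52 (edgeR adjusted p = 0.156). With the replicate block it was 0.78 (edgeR adjusted p = 0.00028), and without the control library labelled PSC4 replicate 1 it was 0.79 (edgeR adjusted p = 0.0226). Without all libraries of that label it was 0.82 (edgeR adjusted p = 0.00029). An antisense gene overlaps Dusp5 in GENCODE M21, and whether the counting used strand is not given in the sources used here.

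Dusp4 (ENSMUSG00000031530, chromosome 8, 34807297 to 34819894, plus strand) took another course from Dusp6. Control libraries had 91.0, 60.5 and 67.1 (PSC4) and 63.9 and 65.7 CPM (PSC5), and TGFbeta libraries 135.9 and 184.4 (PSC4) and 88.7 and 152.7 CPM (PSC5). CM libraries had 59.9 and 40.8 (PSC4) and 44.0 and 54.8 CPM (PSC5), below every control library, while of the TGFbeta libraries only PSC5 replicate 1 reached into the control range. With neratinib the values were 103.1 and 50.7 (PSC4) and 47.9 and 75.4 CPM (PSC5), spread over the range of both CM and control. Dusp4 rose with TGFbeta by 1.03 on the log2 scale (SE 0.22, edgeR adjusted p = 0.00193). In CM the change from control was -0.45 (edgeR adjusted p = 0.202, and 0.0343 with the replicate block). Neratinib against CM gave 0.46, higher than the partner in 4 of 4 pairs (edgeR adjusted p = 0.181, and 0.0376 with the replicate block).

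**Figure D2:**
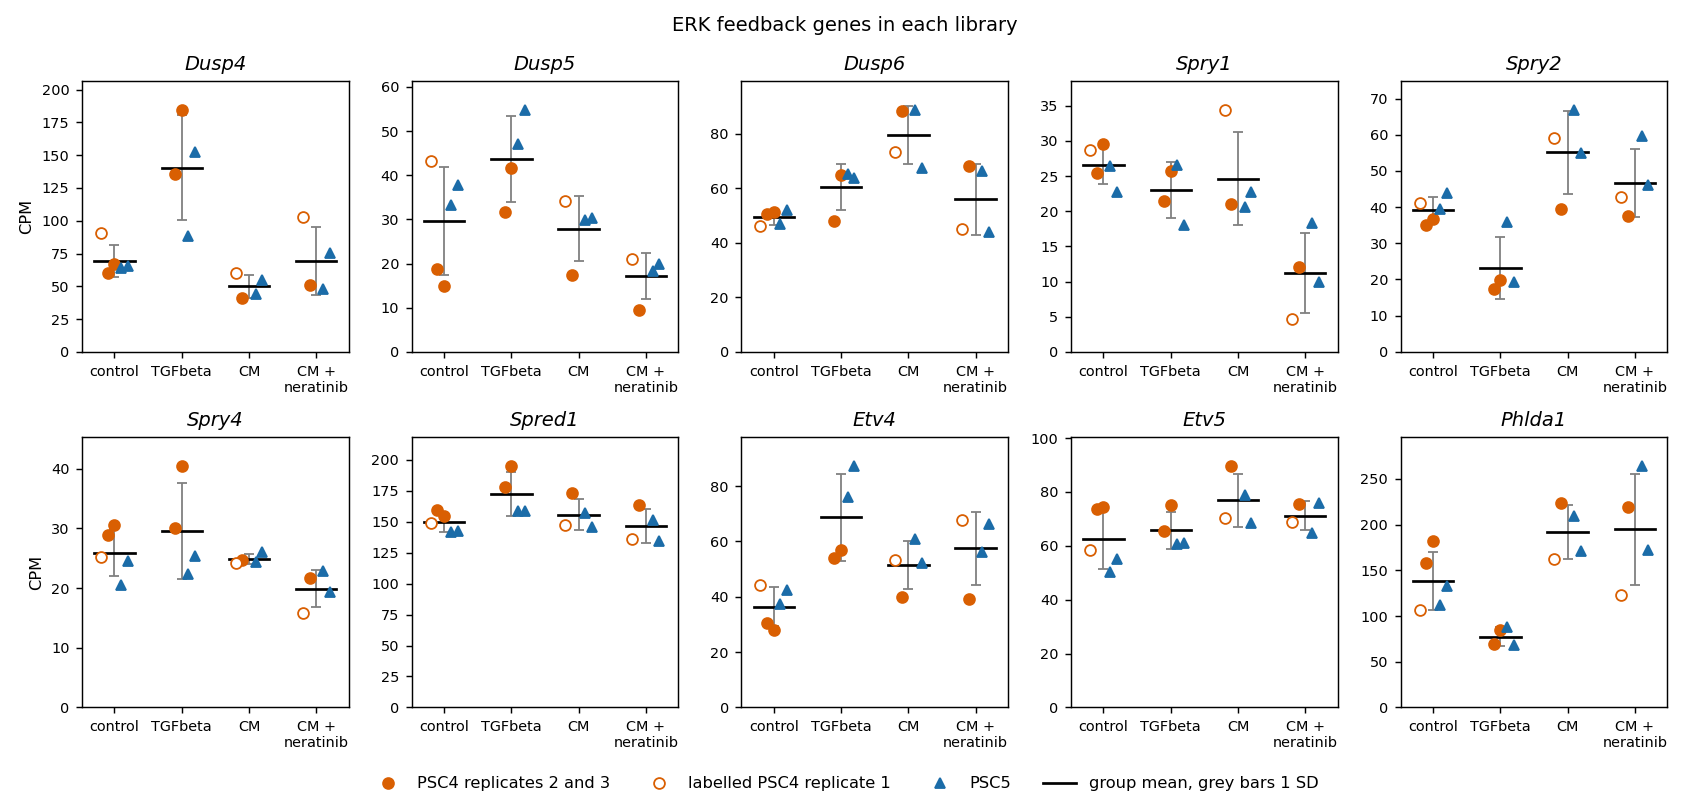
CPM (y axis, from 0) of each ERK feedback gene in each of the 17 libraries by group (x axis), with group means and bars of 1 SD; open circles are the libraries labelled PSC4 replicate 1, filled circles the other PSC4 libraries and triangles PSC5. By group mean, Dusp6 is highest in CM, Spry1 lowest in CM with neratinib, and Dusp4 highest while Spry2 and Phlda1 are lowest in TGFbeta.

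Among the Sprouty genes, Spry1 (ENSMUSG00000037211, chromosome 3, 37639947 to 37644598, plus strand) changed most with neratinib. It had 28.7, 25.4 and 29.6 (PSC4) and 26.4 and 22.8 CPM (PSC5) in control medium, 34.4 and 20.96 (PSC4) and 20.5 and 22.7 CPM (PSC5) in CM, and 4.64 and 12.1 (PSC4) and 18.3 and 9.94 CPM (PSC5) in CM with neratinib. The control and CM ranges overlapped, and every neratinib library lay below both of them. Among all genes tested, 18.7% had no overlap between CM and CM with neratinib in either direction. The change against CM was -1.14 (SE 0.30, edgeR adjusted p = 0.0154) and against control -1.24 (SE 0.29, edgeR adjusted p = 0.00323). Its size depended on PSC4 replicate 1, the highest CM library and the lowest neratinib library: without the libraries of that label the change against CM was -0.67 (edgeR adjusted p = 0.0431), and without the CM library alone it was -0.92 (edgeR adjusted p = 0.0543). Without the T6 libraries it was -1.28 (edgeR adjusted p = 0.172), and with only these groups and the replicate block -1.21 (edgeR adjusted p = 0.0985). Against control it was called in all 22 alternative fits, with edgeR adjusted p up to 0.0495. CM and TGFbeta differed from control by -0.11 and -0.21 (edgeR adjusted p = 0.828 and 0.573). A gene of unresolved type on the other strand overlaps Spry1.

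Spry2 (ENSMUSG00000022114, chromosome 14, 105891947 to 105896819, minus strand) was lowest with TGFbeta, at 17.4 and 20.0 (PSC4) and 35.8 and 19.3 CPM (PSC5). Control libraries had 41.1, 35.2 and 36.7 (PSC4) and 39.5 and 43.9 CPM (PSC5). Of the TGFbeta libraries 3 lay far below the controls, and PSC5 replicate 1 lay within their range. The fall was 0.82 on the log2 scale (edgeR log2 change -0.82, SE 0.17, adjusted p = 0.00125). CM libraries had 59.2 and 39.4 (PSC4) and 66.8 and 54.9 CPM (PSC5), and neratinib libraries 42.9 and 37.6 (PSC4) and 59.7 and 46.2 CPM (PSC5). Each neratinib library was below its CM partner, by 0.071 to 0.47 on the log2 scale, and the difference between the groups was -0.25 (95% interval -0.61 to 0.12, edgeR adjusted p = 0.329). CM against control gave 0.45 (edgeR adjusted p = 0.0812, and 0.0279 with the replicate block).

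Spry4 (ENSMUSG00000024427, chromosome 18) was even in CM and had its highest library, in TGFbeta, at 2.57 times its lowest, in CM with neratinib. CM libraries lay between 24.1 and 26.0 CPM, and CM with neratinib libraries had 15.7 and 21.7 (PSC4) and 22.8 and 19.3 CPM (PSC5), below all of them. The difference of -0.32 did not pass the test (95% interval -0.65 to 0.019, edgeR adjusted p = 0.170). Control libraries ranged from 20.5 to 30.5 and TGFbeta libraries from 22.3 to 40.5 CPM, with PSC4 the higher line in both. Against control, CM with neratinib gave -0.35 (edgeR adjusted p = 0.0733), called without the neratinib library PSC5 replicate 1 (-0.46, edgeR adjusted p = 0.0281). Short RNA genes on the other strand overlap Spry4. Spred1 (ENSMUSG00000027351, chromosome 2, 117121374 to 117182279, plus strand) was the steadiest member, with its highest library at 1.45 times its lowest. Its group means were 149.6 ± 7.80 (control, n = 5), 155.7 ± 12.6 (CM, n = 4), 146.5 ± 13.8 (CM with neratinib, n = 4) and 172.5 ± 17.8 CPM (TGFbeta, n = 4). TGFbeta libraries had 178.0 and 195.4 (PSC4) and 158.4 and 158.4 CPM (PSC5), and Spred1 rose by 0.22 on the log2 scale (SE 0.068, edgeR adjusted p = 0.0191). This call was lost without TGFbeta PSC4 replicate 3 (edgeR adjusted p = 0.0845). Neratinib against CM gave -0.088 (95% interval -0.24 to 0.064, edgeR adjusted p = 0.414).

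Neither PEA3 factor gene passed the test between CM and CM with neratinib. Etv4 (ENSMUSG00000017724, chromosome 11, 101769742 to 101785371, minus strand) had 44.1, 30.4 and 28.1 (PSC4) and 37.5 and 42.3 CPM (PSC5) in control medium and 53.1 and 40.0 (PSC4) and 60.7 and 52.2 CPM (PSC5) in CM. With neratinib it had 67.9 and 39.2 (PSC4) and 56.3 and 66.4 CPM (PSC5), so that the inhibited libraries covered the whole CM range and went above it. The difference between these groups was 0.16 (95% interval -0.20 to 0.52, edgeR adjusted p = 0.540). Against control, Etv4 rose in CM with neratinib by 0.63 (SE 0.16, edgeR adjusted p = 0.00632), in all 22 alternative fits. CM alone against control gave 0.47 (edgeR adjusted p = 0.0670), which was called with the replicate block (0.43, edgeR adjusted p = 0.0028), without PSC4 replicate 1 (0.47, edgeR adjusted p = 0.00322) and without the control library of that label (0.59, edgeR adjusted p = 0.0224). The highest mean came with TGFbeta, with 54.2 and 57.1 (PSC4) and 76.0 and 87.4 CPM (PSC5). These lay above every control library and overlapped the range of CM and of CM with neratinib. That rise was 0.87 (SE 0.16, edgeR adjusted p = 0.00064).

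Etv5 (ENSMUSG00000013089, chromosome 16, 22381309 to 22439719, minus strand) had 58.5, 73.8 and 74.4 (PSC4) and 50.3 and 55.1 CPM (PSC5) in control medium. CM libraries had 70.1 and 89.8 (PSC4) and 78.9 and 68.4 CPM (PSC5), and neratinib libraries 68.8 and 75.3 (PSC4) and 64.7 and 76.0 CPM (PSC5). The groups overlapped in each case, and each CM library was above the control library of its own line and passage. Etv5 rose in CM by 0.33 (SE 0.10, edgeR adjusted p = 0.0445), a call that 11 of 22 alternative fits kept. It was lost without the T6 libraries (0.30, edgeR adjusted p = 0.182). Leaving out any 1 of the CM libraries PSC4 replicate 2, PSC5 replicate 1 and PSC5 replicate 2, or of the control libraries PSC4 replicate 1, PSC5 replicate 1 and PSC5 replicate 2, gave edgeR adjusted p between 0.0537 and 0.144. Neratinib against CM gave -0.11 (95% interval -0.34 to 0.12, edgeR adjusted p = 0.517). Against control, CM with neratinib gave 0.22 (edgeR adjusted p = 0.0941, 0.0137 with the replicate block and 0.0479 without PSC4 replicate 1).

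Phlda1 (ENSMUSG00000020205, chromosome 10, 111506286 to 111508645, plus strand) had 107.0, 158.1 and 182.5 (PSC4) and 112.4 and 132.8 CPM (PSC5) in control medium. TGFbeta libraries had 68.9 and 84.6 (PSC4) and 88.5 and 68.2 CPM (PSC5), all below the lowest control. Phlda1 fell with TGFbeta (edgeR log2 change -0.84, SE 0.21, adjusted p = 0.00526). CM libraries had 162.8 and 223.3 (PSC4) and 209.9 and 170.8 CPM (PSC5), and neratinib libraries 123.0 and 219.7 (PSC4) and 264.5 and 171.9 CPM (PSC5). The means of these groups were 191.7 ± 29.5 and 194.8 ± 61.0 CPM (n = 4 each), a difference of 0.023 (95% interval -0.44 to 0.48, edgeR adjusted p = 0.953) whose sign turned with the fit. CM against control gave 0.47 (edgeR adjusted p = 0.146, and 0.0125 with the replicate block). CM with neratinib against control gave 0.49 (edgeR adjusted p = 0.0676), which was called with the replicate block (0.55, edgeR adjusted p = 0.00546) and without PSC4 replicate 1 (0.62, edgeR adjusted p = 0.0109). It was also called without the neratinib library of that label (edgeR adjusted p = 0.0108) and without the control library PSC4 replicate 3 (edgeR adjusted p = 0.0311). A long noncoding RNA gene on the other strand overlaps Phlda1.

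Per kilobase of annotated exon, Phlda1 was the most abundant member, with a mean of 68.0 CPM per kb over the 17 libraries. Dusp4 (29.8), Spred1 (22.95), Spry2 (19.6), Dusp6 (19.3), Etv4 (16.9), Etv5 (16.7) and Dusp5 (11.98 CPM per kb) followed, and Spry1 (7.45) and Spry4 (5.28 CPM per kb) were the lowest. The spread over libraries was widest for Spry1, whose highest library had 7.41 times the CPM of its lowest. The group with the highest mean was TGFbeta for Dusp4, Dusp5, Spry4, Spred1 and Etv4, CM for Dusp6, Spry2 and Etv5, control for Spry1 and CM with neratinib for Phlda1. Most neighbouring groups in these orders did not differ beyond their spread: for Spry4, Spred1, Etv4 and Etv5 no neighbouring step was called, for Dusp5 none, and for Dusp4, Spry1, Spry2 and Phlda1 1 step each.

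TGFbeta raised some members and lowered others. Dusp4, Etv4 and Spred1 rose and Spry2 and Phlda1 fell, 3 and 2 of 10, where 19.7% of all tested genes were called higher and 20.5% lower. With the replicate block 6 members were called (50.9% of all genes), without PSC4 replicate 1 also 6 (49.4%) and without the T6 libraries 5 (37.1%). CM against control called 2 members higher, Dusp6 and Etv5, and 0 lower, against 7.05% and 7.14% of all genes, and 5 members had an unadjusted p under 0.05. The block called 6 members in that comparison (23.3% of all genes), the fit without PSC4 replicate 1 called 3 (18.1%) and the fit without the T6 libraries 1, Dusp6 (7.58%). CM with neratinib against control called Etv4 higher and Spry1 and Dusp5 lower, where 22.2% and 20.9% of all genes were called. There the block called 5 members (52.4% of all genes), the fit without PSC4 replicate 1 called 5 (40.3%) and the fit without the T6 libraries 2 (31.4%).

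Set against TGFbeta, CM had higher Spry2 (log2 change 1.27) and Phlda1 (1.31) and lower Dusp4 (-1.48), where 17.8% and 17.5% of all genes were called. The replicate block called 7 members (43.4% of all genes), adding Dusp6, Dusp5 (-0.93, edgeR adjusted p = 0.0002), Etv4 (-0.55, edgeR adjusted p = 0.00026) and Etv5 (0.32, edgeR adjusted p = 0.00957). Without PSC4 replicate 1 the same 4 were added (41.6% of all genes), and Etv5 also without the CM library of that label (edgeR adjusted p = 0.0447). In CM with neratinib against TGFbeta, Spry2 (1.02) and Phlda1 (1.33) were higher and Dusp4 (-1.02), Dusp5 (-1.34), Spry1 (-1.03), Spry4 (-0.55) and Spred1 (-0.23) lower, against 23.1% and 20.9%. Etv4 was added with the replicate block (-0.41, edgeR adjusted p = 0.00173), without PSC4 replicate 1 (-0.44, edgeR adjusted p = 0.00101) and without the neratinib library of that label (-0.41, edgeR adjusted p = 0.0463). Without the T6 libraries Spry1, Spry4 and Spred1 were lost (edgeR adjusted p = 0.0937, 0.0707 and 0.0582). Spred1 was also lost without the neratinib library PSC4 replicate 1 (edgeR adjusted p = 0.0510) and without the TGFbeta library PSC4 replicate 3 (edgeR adjusted p = 0.0603).

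The 4 neratinib libraries each have a CM library of the same line, passage and medium code, which allows a description of paired differences without a test. Dusp5, Dusp6, Spry1, Spry2, Spry4 and Spred1 were lower with neratinib in 4 of 4 pairs, and Dusp4 was higher in 4 of 4. Of all tested genes 25.1% were lower in all 4 pairs and 23.9% higher. For Dusp5 the differences in log2 CPM were the most even of the large ones, from -0.86 to -0.60, and for Dusp6 they ran from -0.70 to -0.37. Spry1 ranged from -2.87 in PSC4 replicate 1 to -0.17 in PSC5 replicate 1. Etv4 and Phlda1 were higher in 2 pairs and lower in 2, and Etv5 was lower in 3. By pair, 8 members (PSC4 replicate 1), 9 (PSC4 replicate 2), 8 (PSC5 replicate 1) and 6 (PSC5 replicate 2) were lower, while 49.7% to 52.0% of all tested genes were.

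**Figure D3:**
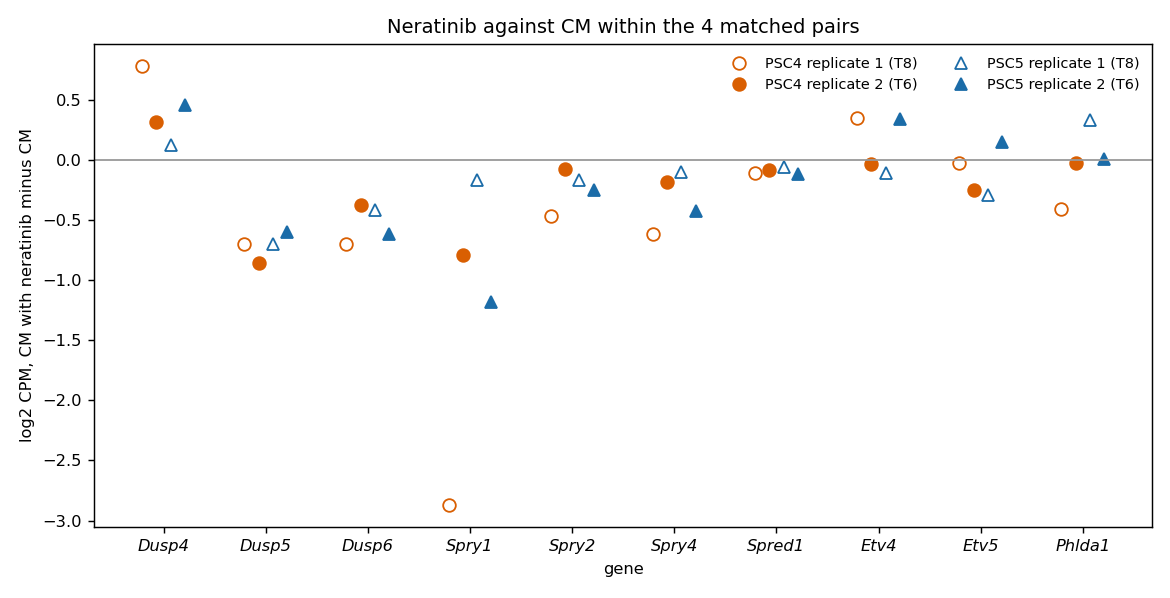
Difference in log2 CPM between CM with neratinib and CM (y axis) for each ERK feedback gene (x axis) in the 4 pairs of the same cell line, passage and medium code; circles are PSC4, triangles PSC5, open symbols T8 and filled symbols T6. Dusp5 and Dusp6 lie below 0 in all 4 pairs in a narrow band, Spry1 spreads from -2.87 to -0.17, and Dusp4 lies above 0 in all 4.

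No difference of an effect between the lines passed the test for any member. In PSC4 and PSC5 the difference in mean log2 CPM between neratinib and CM was -0.54 and -0.52 for Dusp6, -0.78 and -0.65 for Dusp5, and -1.83 and -0.68 for Spry1. The PSC4 value of Spry1 is the mean of -2.87 in replicate 1, whose libraries lay with PSC5, and -0.79 in replicate 2, so the line labels in this comparison are in doubt. The interaction for Spry1 had the lowest p of any member in this test (edgeR unadjusted p = 0.0688, adjusted p = 1.00). In edgeR none of the 10 members, nor any of the 13923 genes (0%), was called for a difference of the neratinib, CM or TGFbeta effect between lines. In these tests 0 members had an unadjusted edgeR p under 0.05. DESeq2 called 0 members, and of all genes 1 for the neratinib, 0 for the CM and 29 (0.208%) for the TGFbeta effect. The medium code was tested in a fit that also held group and the replicate block. It thus compares the difference between replicates 2 and 1 in the conditioned media with that in the other media, and not T6 with T8 libraries directly. Between the medium codes edgeR called 0% of genes, with a lowest unadjusted edgeR p of 0.370 among the members. DESeq2 called 33 genes (0.237%) between the codes, and 0 members. For Dusp6 the CM means were 77.8 with T6 and 81.0 CPM with T8, and the neratinib means 56.0 and 55.7 CPM (2 libraries each).

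Positive and negative correlations between members were about equally frequent. Over the 17 libraries 23 of the 45 pairs of members had a positive Pearson correlation of log2 CPM, with a median r of 0.047, and 23 had one after removal of group means, with a median of 0.037. These libraries share cell lines, passages and media, so the values are descriptive. Spry2 and Phlda1 were the most alike (r = 0.78, Spearman 0.61), followed by Spry4 and Spred1 (r = 0.77, Spearman 0.60). After removal of group means r was 0.14 for Spry2 and Phlda1 and 0.74 for Spry4 and Spred1. Dusp4 ran opposite to Phlda1 (r = -0.89, Spearman -0.87) and to Spry2 (r = -0.81, Spearman -0.60). Dusp5 and Etv4 had r = 0.52, and 0.91 after removal of group means. Spred1 and Etv4 went from -0.062 to -0.81 by the same step.

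**Figure D4:**
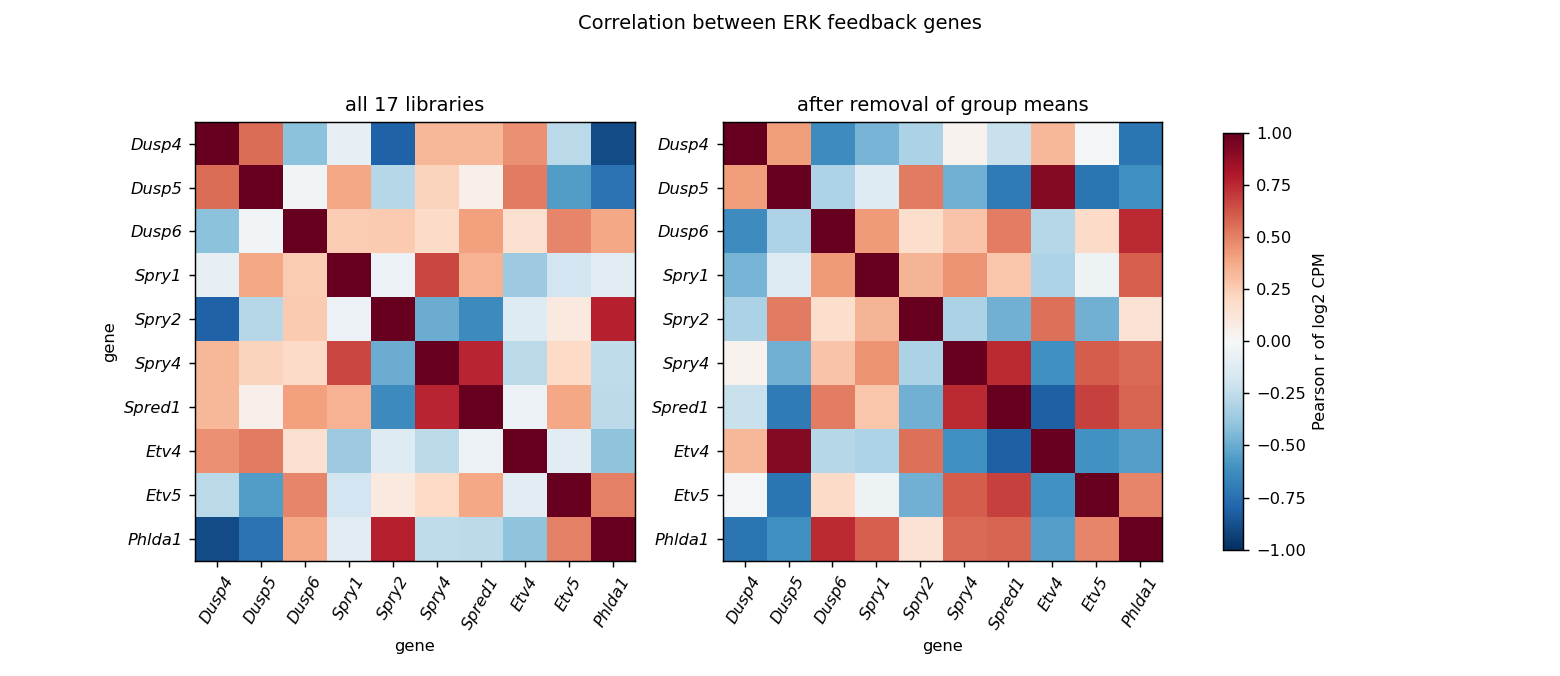
Pearson correlation of log2 CPM between each pair of ERK feedback genes (both axes) over 17 libraries, as measured (left) and after removal of group means (right); red is positive and blue negative. Red and blue cells are about equal in number, 23 of 45 pairs being positive on each side, and Dusp4 is blue against Phlda1 on both.

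For 3 members, the genes with the most similar profile over the 17 libraries were taken. For Dusp6 these were Slc7a6 (r = 0.84), Ncaph (0.82), Elovl6 (0.81) and Junb (0.81), an amino acid transporter gene, a condensin subunit gene, a fatty acid elongase gene and an AP-1 factor gene. For Spry4 they were Ano8 (0.92), Eln (0.90), B3galt6 (0.90) and Trib2 (0.89). Eln, the gene of elastin, had a mean of 31.0 CPM with TGFbeta, 11.2 in control, 4.10 in CM and 1.24 in CM with neratinib, a far wider range than Spry4. For Etv5 they were Bard1 (0.86), Mitf (0.85), Tns4 (0.84) and Asf1b (0.82).

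Relatives of the members were read from a list of 15 genes, of which Spry3 matched no ID and 12 passed the filter on low counts. Etv1, the other PEA3 factor gene, rose in CM from 30.3 to 59.9 CPM (log2 change 1.00, edgeR adjusted p = 0.00871) and stood at 58.5 CPM with neratinib. Dusp8 (12.2 ± 6.94 against 5.19 ± 0.95 CPM) and Dusp3 (83.4 ± 30.3 against 56.1 ± 3.48 CPM) rose with neratinib over CM (mean ± SD, n = 4 each). No relative fell, where 10.8% of all genes were called higher and 9.63% lower. Phlda3 fell in CM from 78.1 to 38.5 CPM. TGFbeta raised Dusp9 from 11.4 to 38.7 and Spred2 from 82.6 to 190.2 CPM and lowered Dusp1 from 38.5 to 14.3 CPM and Etv1 to 16.3 CPM. In CM with neratinib against control, 5 relatives rose and 3 fell, against 22.2% and 20.9% of all genes. Among those that fell was Dusp1, the immediate early phosphatase gene, at 26.7 CPM.

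Of 20 other genes known as ERK outputs, all tested, 3 rose and 4 fell with neratinib over CM, against 10.8% and 9.63% of all genes. Egr1, the immediate early zinc finger gene, fell from 363.3 to 176.8 CPM (edgeR log2 change -1.04, adjusted p = 0.00083), and Errfi1, which encodes an inhibitor that binds EGFR, from 288.0 to 127.3 CPM (edgeR log2 change -1.19, adjusted p = 8.1e-05). Fosl1, an AP-1 factor gene often used as an ERK readout, rose from 55.0 to 102.7 CPM (log2 change 0.90, edgeR adjusted p = 0.0144), and Ier3 from 101.7 to 185.6 CPM. Both spread widely with neratinib, Fosl1 from 66.5 to 167.9 CPM (SD 47.3, in CM 6.24) and Ier3 from 126.3 to 316.0 CPM (SD 87.7, in CM 10.4). Vgf also fell but was below 1 CPM in both groups. CM raised Maff, Errfi1 and Trib1 and lowered Egr3, 3 and 1 of 20, against 7.05% and 7.14% of all genes. The median log2 change over these genes was 0.013 for neratinib against CM and 0.29 for CM against control, where that of all genes tested was 0.00082 and -0.00037.

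Of 33 genes of the cascade itself and its nuclear factors, 6 rose and 2 fell with neratinib over CM. Of all genes 10.8% were called higher and 9.63% lower in that comparison. Map2k1, which encodes MEK1, rose from 135.2 to 175.2 CPM (log2 change 0.37, edgeR adjusted p = 0.011), and Rps6ka2, an RSK kinase gene, from 32.4 to 63.6 CPM. Rasa1, a RAS inactivator gene, and Shc1, an adaptor gene, fell to 186.3 from 255.6 and to 254.7 from 302.5 CPM. Map2k1 was also higher in CM than in control (88.4 CPM), and Erf, the ETS repressor gene, rose with it from 62.4 to 81.0 CPM. Atxn1, whose protein is a partner of CIC, fell in CM from 46.0 to 29.0 CPM and stood at 24.9 CPM with neratinib. TGFbeta raised 16 of the 33 and lowered 3, where 19.7% of all genes were called higher and 20.5% lower.

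**Figure D5:**
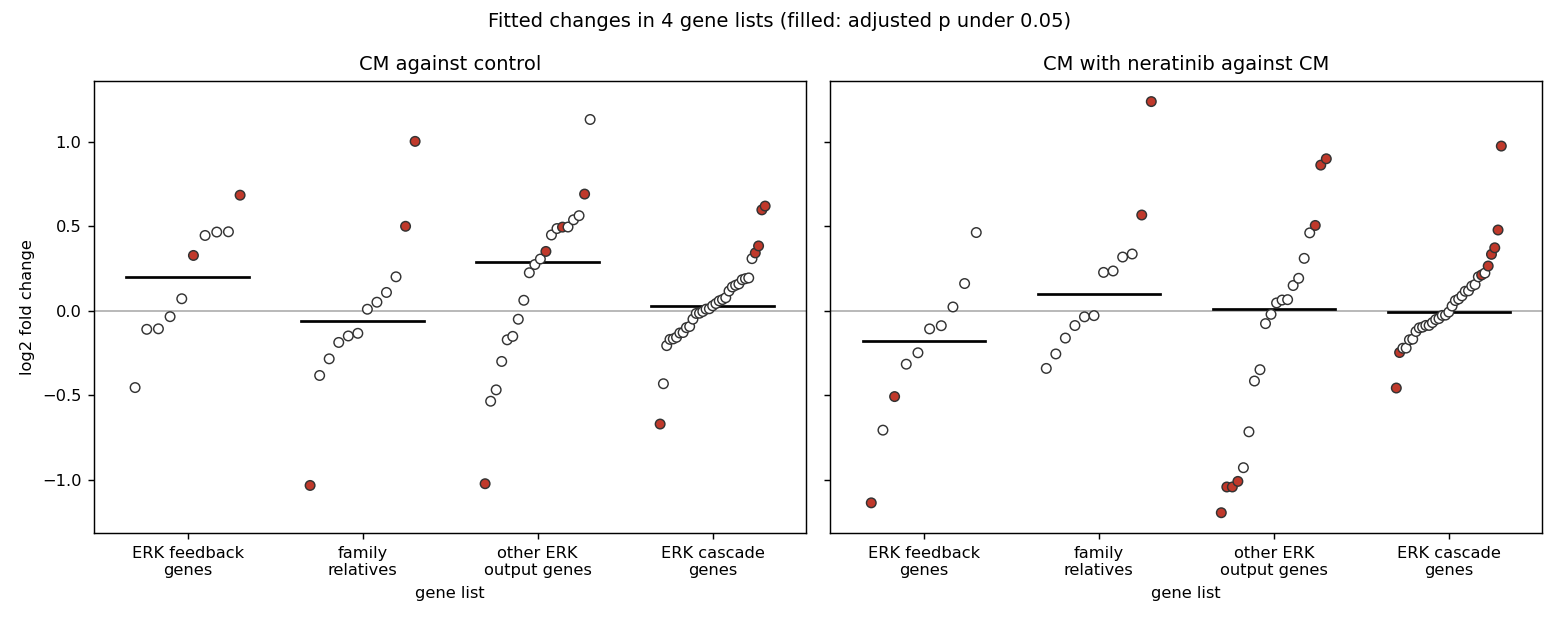
Fitted log2 fold changes (y axis) of the 10 ERK feedback genes and of 3 further lists (x axis: 12 family relatives, 20 other ERK output genes, 33 cascade genes) in CM against control (left) and CM with neratinib against CM (right); points are genes, filled at an edgeR adjusted p under 0.05, and bars are list medians. On the right the median is -0.18 for the feedback genes, 0.099 for the relatives and 0.013 for the other output genes, and each list holds points on both sides of 0.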

How the data were processed

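RNA-seq libraries were made from 300 ng of RNA per sample with an Illumina mRNA kit, per the labels' protocols. The authors deposited expected counts, 1 value per Ensembl gene and library, and the submitters' processing notes name Salmon 1.4.0 and the build GRCm38 (mm10). The transcriptome release is not given in the sources used here, and a tool named DESeq with version 2 is listed without a role. The expected counts were rounded to whole numbers, a step that moved no library total by more than 307.9. Of 35896 IDs, 35437 matched a symbol.

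Groups came from the labels. Counts were fitted in edgeR 4.0.16 (R 4.3.3, quasi-likelihood test) with TMM factors and filterByExpr (minimum count 10, total 15), with group and cell line as terms over all 17 libraries, and adjusted by Benjamini-Hochberg over 13923 genes. The fits were tested on simulated data. Libraries of different groups share line, number and passage, and with group means removed all 22 pairs of the same line and number correlated across genes above 0.1 (0.12 to 0.63, median 0.30). Without PSC4 replicate 1 the median was 0.29, against 0.25 for other numbers of the same line. Pairs of a CM and a neratinib library, which also share the medium code, had r = 0.63 and 0.31 (PSC4) and 0.48 and 0.22 (PSC5). With the other number of the same line these were -0.31 and -0.39 (PSC4) and -0.063 and -0.22 (PSC5). The main fit has no term for these pairs. A fit with this block over all groups is given as an alternative where it changes a call. Whether the number pairs libraries beyond their line was not tested. DESeq2 1.42.0, limma-voom (limma 3.58.1), other factors and filters, fewer groups and left-out libraries were alternatives. The 10 members and the gene lists were chosen with earlier results of these data known. Named list genes are up to 3 called genes with the largest rise and 3 with the largest fall per list and comparison. One gene that this rule picks is not reported here. Profiles were compared by Pearson r of log2 CPM (prior count 2), taking the 4 highest genes. Exon lengths and positions are from GENCODE M21 (GRCm38).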

Additional observations from a re-analysis of the deposited data

Results flagged for a closer look

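In 4 of the 40 combinations of member and group, 1 library stood apart from the others by Dixon's test at the 95% level, where chance alone flags about 1 in 20 groups. Dusp4 had 91.0 CPM in control PSC4 replicate 1, beside 60.5 to 67.1 CPM in the other controls. Dusp6 had 47.8 CPM in TGFbeta PSC4 replicate 2, beside 63.6 to 65.3 CPM in the other TGFbeta libraries. Spry1 had 34.4 CPM in CM PSC4 replicate 1, beside 20.5 to 22.7 CPM in the rest of CM. Spry2 had 35.8 CPM in TGFbeta PSC5 replicate 1, beside 17.4 to 20.0 CPM. The libraries labelled PSC4 replicate 1 account for 2 of these 4, the remaining 2 are in TGFbeta, and the cause was not tested.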

How the results depend on the processing

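These calls held in every alternative run: Dusp6 in CM against control, Spry1 and Etv4 in CM with neratinib against control, Dusp4, Spry2, Etv4 and Phlda1 in TGFbeta against control, Dusp4, Spry2 and Phlda1 in CM against TGFbeta, and these 3 with Dusp5 in CM with neratinib against TGFbeta. The remaining calls moved, and the cause was not tested. For neratinib against CM, 2 members were called, 4 with the replicate block, 0 with only the 2 groups in the model (4 at an unadjusted p under 0.05 in edgeR) and 0 without the T6 libraries, an alternative chosen after seeing the data. Leaving out 1 library gave 1 to 2. For CM against control, 2 were called, 6 with the replicate block, 4 with DESeq2, 7 with only the 2 groups and the replicate block, and 1 each with upper-quartile factors, no filter, no cell line term and no T6 libraries; leaving out 1 library gave 1 to 2. For CM with neratinib against control, 3 were called, 5 with the replicate block, with or without the other groups, 5 without PSC4 replicate 1, 6 with those libraries counted as PSC5, and 2 each with only the 2 groups, no cell line term and no T6 libraries; leaving out 1 library gave 2 to 4. For TGFbeta against control, 5 were called, and 4 to 6 in the alternatives. For CM against TGFbeta, 3 were called, 7 with the replicate block, 6 with only the 2 groups with or without it, and 7 with PSC4 replicate 1 removed or counted as PSC5. For CM with neratinib against TGFbeta, 7 were called, 4 with only these groups or without T6, 6 with only these groups and the block, and 8 with the replicate block and with PSC4 replicate 1 removed or counted as PSC5. Over all genes, the block called 4563 rather than 2850 for neratinib against CM and 3240 rather than 1976 for CM against control.

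Sign changes concerned log2 changes that were not called. Phlda1 (neratinib against CM) was -0.012 with the replicate block, -0.023 with limma-voom and -0.024 with only the 2 groups and the block; leaving out 1 library gave -0.17 to 0.21, and for Etv4 -0.018 to 0.28. In CM against control, Dusp5 and Spry1 were 0.12 and 0.050 without T6, and Spry4 was 0.047 with the replicate block, 0.0081 with the block and only the 2 groups, and 0.0096 without PSC4 replicate 1. Dusp4 (CM with neratinib against control) was -0.025 with the replicate block, -0.043 with limma-voom, -0.055 with upper-quartile factors, -1.6e-05 at a minimum count of 50, -0.0076 without the line term, -0.072 with the 2 groups and the block, -0.15 without PSC4 replicate 1 and -0.033 with those counted as PSC5. Spred1 was 0.033 there without PSC4 replicate 1. Spry1 (CM against TGFbeta) was -0.022 with the 2 groups and the block and -0.096 without PSC4 replicate 1. Leaving out 1 library gave -0.34 to 0.16 for Dusp5 and -0.098 to 0.017 for Spry4 in CM against control, -0.22 to 0.17 for Dusp4 and -0.056 to 0.042 for Spred1 in CM with neratinib against control, and -0.12 to 0.19 for Spry1 in CM against TGFbeta.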
